A study of Bos taurus with 13 samples.

Results

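The genes described here are those of MHC class II antigen presentation in the blood of dairy cows: *CD74*, *CIITA* and the bovine class II genes whose name in the count tables starts with BOLA-D or BLA-D. This rule on names, which uses no measured value, found 3 of the 16095 named genes, *CD74*, *CIITA* and *BOLA-DOA*. Another 4 genes of the same tables carry class II names of a different spelling, *BoLA DR-ALPHA*, *HLA-DMA*, *HLA-DOB* and *HLA-DQB2*, and they are described beside the 3 as class II genes outside the rule. Of 13 symbols starting with BOLA-D in the RefSeq table of the later ARS-UCD2.0 assembly, 1 was found under the same symbol in the counts, so the DR beta, DQ and DM beta chains were not analysed here under those names. The table of that assembly was used for names and neighbours only, and no protein or promoter sequence was used.

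Class II molecules are pairs of an alpha and a beta chain that carry peptides from the endosome to the cell surface, where CD4 T cells read them. *CD74* encodes the invariant chain, which fills the peptide groove of new class II molecules and leads them to the endosome. There DM exchanges the remnant of the invariant chain for peptides, and DO, made of the DOA and DOB chains, inhibits DM. *CIITA* encodes the transactivator that the promoters of these genes require, held there by the RFX and NF-Y complexes. In blood, class II is carried by B cells, monocytes and dendritic cells, and DO is best known from B cells.

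Whole blood was taken from the tail vein of lactating Italian Red Pied cows (the breed is called Italian Simmental in the study's methods) into PAXgene tubes, which fix RNA at sampling, and RNA was sequenced without removal of globin transcripts. The cows came from the high and the low tail of milk cortisol within 1 commercial herd, were clinically healthy and received no treatment from the study. Counts of 7 cows of the high group (replicates 1 to 7) and 6 cows of the low group (replicates 8 to 13) were analysed, with 1 library a cow. Ages, genotypes at the class II region and the cortisol value of a single cow were not used here.

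Reads counted on named genes were between 11045599 and 28124575 a cow, with a median of 18595924 in the high group and 17005346.5 in the low group. Genes without a name shared 1 unnamed entry, which held 13.9% to 16.7% of the counts and was left out. Each group was compared with edgeR's quasi-likelihood test over 11033 genes that passed a filter on low counts, all 7 genes described here among them. With Benjamini-Hochberg adjustment 0% of the genes passed 0.05, and 2.09% had an unadjusted p below 0.05 (0.934% higher and 1.16% lower in the high group). Blood was checked against the markers of its cells, and 15 B cell, 13 monocyte, 16 T cell and 10 neutrophil markers were tested with none at 0 in all cows. The 4 haemoglobin genes found of 6 listed (*HBB*, *HBG*, *HBM* and *HBQ1*) took 0.0114% to 0.815% of the counts on named genes. The highest share was in replicate 7 of the high group. *HBA* and *HBA1* were not found under these names, so this share is not that of all haemoglobin RNA. The labels give no batch or date of sequencing.

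Positions are on UMD3.1, as the count tables give them. *CD74* lies on the minus strand of chromosome 7 from 63748885 to 63756646, with 1373 bases of exon. *CIITA* lies on the plus strand of chromosome 25 from 9604334 to 9662902, with 3707 bases of exon in 19 exon entries. The class II genes themselves are on chromosome 23, at a pair of distant places. *BOLA-DOA* (7218687 to 7220390) stands with *HLA-DMA* (7204350 to 7207052), *HLA-DOB* (7054419 to 7063641) and *HLA-DQB2* (7036910 to 7046366), while *BoLA DR-ALPHA* (25587526 to 25592227) stands far from them. This split of the region, with the DR and DQ chains away from the DM and DO chains, is known for cattle and other ruminants. The annotation of the tables names *HLA-DQB2* beside *HLA-DOB*, and in ARS-UCD2.0 the gene listed beside *BOLA-DOB* is *BOLA-DYB*. Class II beta chain genes resemble each other in sequence, and the counting set no option for reads that map to several places, so the counts of *HLA-DQB2* are uncertain.

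Levels were first compared between genes as CPM (counts made comparable between libraries by TMM scaling) per kilobase of exon. *CD74* was the gene with the highest level per length of all 11033 tested, at 10022 ± 1992 CPM per kilobase (SD, n = 13). *BoLA DR-ALPHA*, the alpha chain of the main class II molecule, was the sixth in that order, at 5562 ± 939 CPM per kilobase (SD, n = 13). In each of the 13 cows *CD74* stood above *BoLA DR-ALPHA*. The ratio of their levels per length was 1.79 ± 0.165 (SD, n = 7) in the high group and 1.81 ± 0.153 (SD, n = 6) in the low group, a difference smaller than the spread within either group.

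The other class II genes were far lower. *HLA-DMA*, the alpha chain of the peptide exchanger, had 422 ± 70.7 CPM per kilobase (SD, n = 13), which is 13.2 times below *BoLA DR-ALPHA* with no overlap between the cows of both genes. The chains of DO came next, *HLA-DOB* at 180 ± 53.3 and *BOLA-DOA* at 152 ± 40.7 CPM per kilobase (SD, n = 13 each). These neighbours in the order overlapped widely, although *HLA-DOB* was the higher of them in 11 of 13 cows. Per length, RNA of *HLA-DMA* exceeded that of both DO chains in every cow. It stood at 1.98 to 4.31 times *BOLA-DOA* in the high group and 2.16 to 3.55 times in the low group. Against *HLA-DOB* the ratio was 1.69 to 2.78 in the high group and 1.93 to 3.01 in the low group. The DM beta chain was not analysed under its name, so no level of DM as a pair is given.

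*CIITA* had 113 ± 19.9 CPM per kilobase (SD, n = 13), below *BOLA-DOA* in all 13 cows, but the ranges of both genes over the cows overlapped. The transactivator was the 906th of 11033 genes in the order of levels per length, and *CD74* exceeded it 71.5 to 114 times per length in the high group and 82.5 to 101 times in the low group. *HLA-DQB2* was the lowest, at 1.51 ± 0.851 CPM per kilobase (SD, n = 13), from 9 to 66 counts a cow. Lengths are those of the exons in the gene models, so an incomplete model would shift a level per length.

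**Figure D1:**
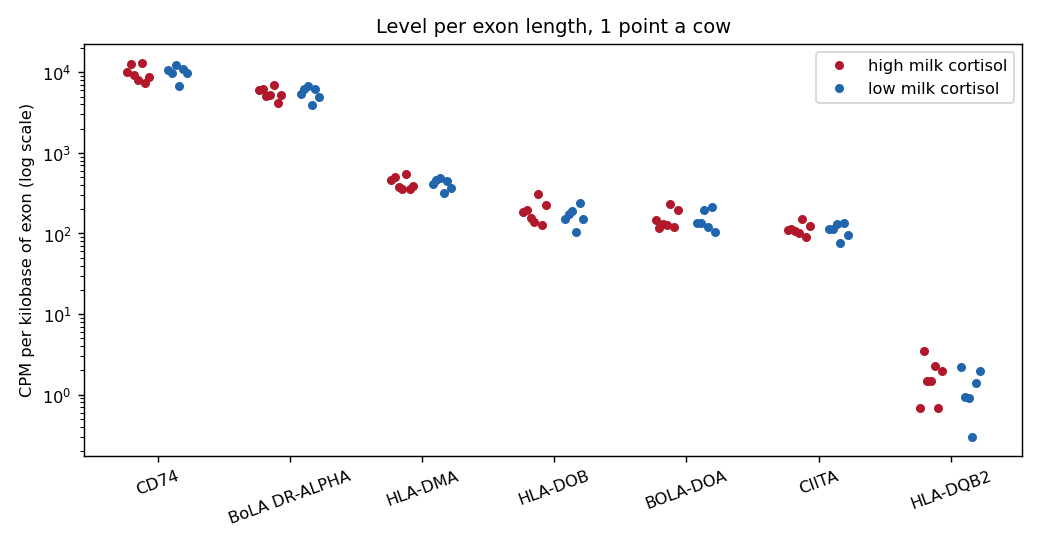
Level of the 7 genes as CPM per kilobase of exon on a log axis, 1 point a cow, with the high group in red and the low group in blue. *CD74* and *BoLA DR-ALPHA* sit above all others, with means of 10022 and 5562, and *HLA-DQB2* sits below all others at 1.51.

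As a share of all reads on named genes, the 3 genes of the rule took 1.13% to 1.84% (median 1.35%) in the high group and 1.01% to 1.66% (median 1.42%) in the low group. Nearly all of this was *CD74*, with a median of 1.30% in the high group and 1.36% in the low group. With the 4 other class II genes the share was 1.72% to 2.76% in the high group and 1.56% to 2.53% in the low group. The mean share of the 3 genes was 1.44% ± 0.248 (SD, n = 7) against 1.41% ± 0.234 (SD, n = 6), a difference of 0.0355 percentage points, which is smaller than the spread within either group. A sum over chosen genes was given no test.

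The comparison of high with low milk cortisol asked whether blood of these cows differed in class II RNA. *CD74* had 10263 CPM at the lowest, 12864 at the median and 18077 at the highest in the high group, and 9356, 14071.5 and 16873 CPM in the low group. The groups overlapped over most of their range, and 2 of 7 high cows exceeded the low median. The mean was 13689 ± 3090 CPM (SD, n = 7) against 13844 ± 2546 CPM (SD, n = 6). The log2 fold change of *CD74* was -0.016 (standard error 0.16, 95% interval -0.36 to 0.33), with an unadjusted p of 0.921 by edgeR (adjusted p = 0.999).

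*CIITA* ran from 334 over 415 (median) to 565 CPM in the high group and from 284 over 426 to 500.1 CPM in the low group. Again 2 of 7 high cows exceeded the low median, and replicate 5 stood highest of all cows. The mean was 422 ± 73.6 CPM (SD, n = 7) against 413 ± 80.4 CPM (SD, n = 6), and the log2 fold change was 0.032 (standard error 0.14, 95% interval -0.27 to 0.33), at an unadjusted p of 0.823 by edgeR (adjusted p = 0.999).

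*BOLA-DOA* ran from 119 over 134 (median) to 232 CPM in the high group and from 106 over 136 to 213 CPM in the low group. In both groups a minority of cows stood high, replicates 5 and 7 of the high group at 232 and 197 CPM and replicates 10 and 12 of the low group at 197 and 213 CPM, while the other 9 cows had 106 to 149 CPM. The mean was 155 ± 43.1 CPM (SD, n = 7) against 152 ± 43.0 CPM (SD, n = 6), and the log2 fold change was 0.031 (standard error 0.19, 95% interval -0.37 to 0.43), at an unadjusted p of 0.873 by edgeR (adjusted p = 0.999).

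Thus edgeR called 0 of the 3 genes after adjustment and 0 without it, where 0% and 2.09% of all genes tested passed 0.05. DESeq2 and limma-voom also gave 0 of 3 at either threshold. The median log2 fold change of the 3 genes was 0.031, beside 0.013 over all genes tested. With the B cell marker score described further on as a covariate, *BOLA-DOA* had a log2 fold change of -0.20 (unadjusted p = 0.0410 by edgeR, adjusted p = 0.894). In that fit 1 of the 3 genes had an unadjusted p below 0.05, and so did 353 of all 11033 genes tested.

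The class II genes outside the rule gave the same kind of values. *BoLA DR-ALPHA* had 5206 to 8805 CPM (median 6577) in the high group and 5037 to 8628 CPM (median 7299) in the low group, and a log2 fold change of -0.0042 (95% interval -0.31 to 0.30). *HLA-DMA* had 254 to 399.8 CPM (median 277) in the high group and 228 to 352 CPM (median 313) in the low group, with a log2 fold change of 0.026 (95% interval -0.26 to 0.31). For *HLA-DOB* the range was 103 to 249 CPM (median 152) in the high group and 85.7 to 192 CPM (median 134) among low cows. The fold change on the log2 scale was 0.19 (95% interval -0.25 to 0.62), and 4 of 7 high cows exceeded the low median. *HLA-DQB2* had 0.750 to 3.82 CPM (median 1.66) in the high group and 0.330 to 2.45 CPM (median 1.29) in the low group, with a wide interval of its log2 fold change of 0.42 (-0.53 to 1.36). None of these 4 genes had an unadjusted p below 0.05 (0.365 to 0.977), and every adjusted p was 0.999 by edgeR. For each of the 7 genes the groups overlapped in CPM, and over all genes tested 0.0272% had groups that did not overlap.

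**Figure D2:**
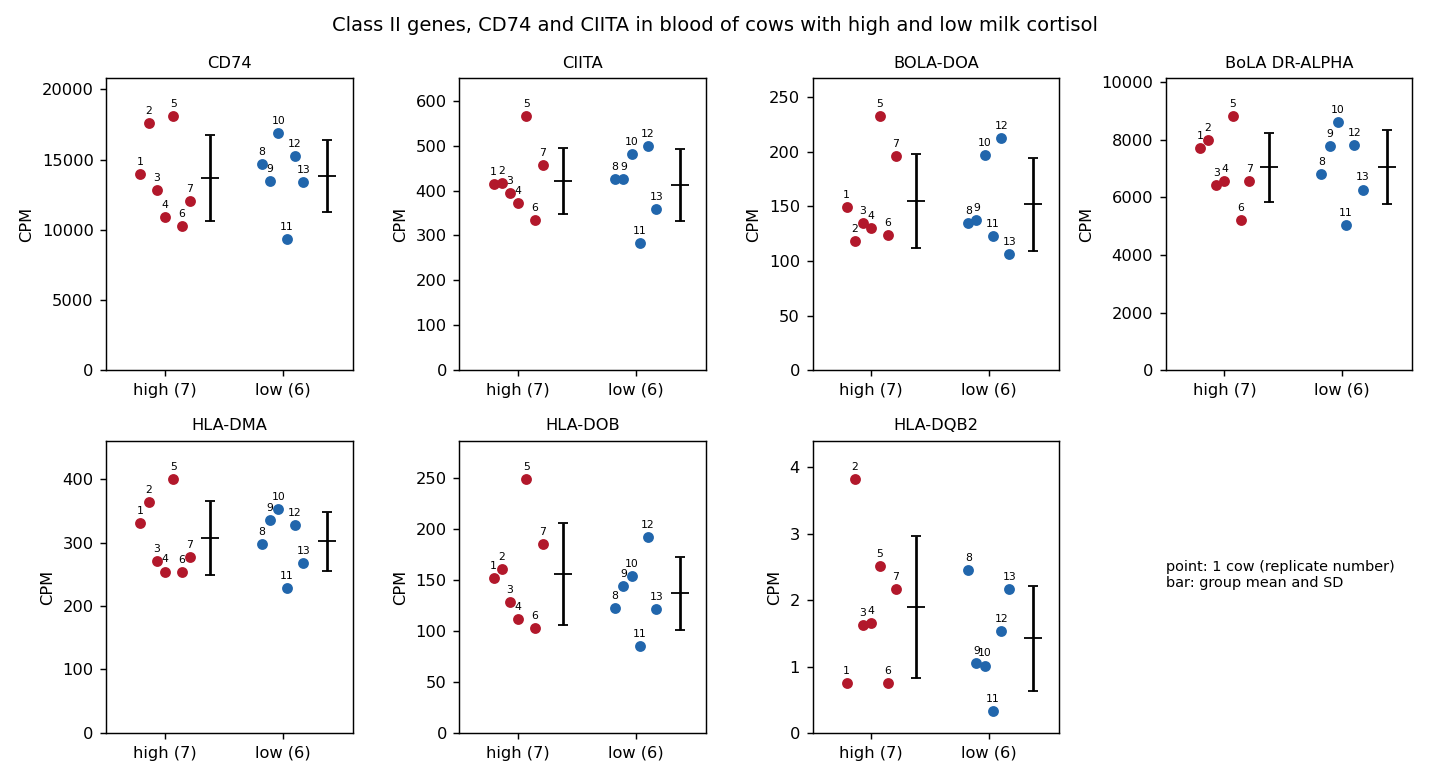
CPM of the 7 genes in each cow, on linear axes from 0, with the replicate number at each point and the mean and SD of the group as a bar. The ranges of both groups overlap for every gene, and replicate 5 is the highest cow for 6 genes and replicate 11 the lowest for 6 genes.

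The genes that serve class II presentation were taken from lists by role. Of 17 transcription factors and cofactors around the class II promoters, 9 were higher and 8 lower in the high group, with a median log2 fold change of 0.015. By edgeR 0 of 17 passed after adjustment, and 1 did without it, lower in the high group as were 1.16% of all genes. This was *PRDM1*, which encodes the repressor of *CIITA* in plasma cells, with 41.3 ± 6.26 CPM among high cows (SD, n = 7) and 49.3 ± 6.66 among low cows (SD, n = 6) and a log2 fold change of -0.26 (unadjusted p = 0.0494 from edgeR's test).

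The RFX complex binds the X box of class II promoters. Its genes *RFX5*, *RFXAP* and *RFXANK* had 24.7, 9.82 and 92.1 mean CPM in the high group and 24.3, 9.31 and 96.4 mean CPM in the low group, with log2 fold changes of 0.025, 0.082 and -0.066. NF-Y binds the CCAAT motif there. For its subunits *NFYA* and *NFYC* the log2 fold changes were 0.035 and -0.044. *NFYB*, the remaining subunit, had 8.12 ± 4.27 CPM among high cows (SD, n = 7) and 5.29 ± 1.84 among low cows (SD, n = 6), a log2 fold change of 0.61 (unadjusted p = 0.0781 from edgeR's test). *IRF1*, an interferon regulatory factor that acts on the *CIITA* promoter, had a log2 fold change of -0.34 with an unadjusted p of 0.136 from edgeR's test.

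Of the endosomal and lysosomal genes, 13 of 15 listed were tested, 5 higher and 8 lower in the high group, and 0 had an unadjusted p below 0.05 by edgeR. *CTSS*, the protease that trims the invariant chain, had 850 ± 303 CPM among high cows (SD, n = 7) and 829 ± 244 among low cows (SD, n = 6). *IFI30*, the reductase that opens disulphide bonds of antigens, had 223 ± 59.9 CPM (SD, n = 7) against 231 ± 64.0 CPM (SD, n = 6). *LGMN*, an endosomal protease of antigens, had the smallest p of these genes, with 371 ± 51.8 CPM among high cows (SD, n = 7), 429 ± 45.6 among low cows (SD, n = 6) and a log2 fold change of -0.21 (unadjusted p = 0.0737 from edgeR's test). Among 8 tested genes of costimulation, *CD40*, *CD80* and *CD86* had log2 fold changes of 0.044, -0.057 and 0.070, and 0 of 8 had an unadjusted p below 0.05 by edgeR.

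For comparison with the other arm of antigen presentation, 10 of 11 listed class I genes were tested, and 8 of them were lower in the high group, with a median log2 fold change of -0.14 and 0 at an unadjusted p below 0.05 by edgeR. *NLRC5*, the class I counterpart of *CIITA*, had 629 ± 94.9 CPM among high cows (SD, n = 7) and 720 ± 177 among low cows (SD, n = 6), and a log2 fold change of -0.19 (unadjusted p = 0.211 from edgeR's test). Whether class I and class II genes differed in their fold changes was not tested.

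**Figure D3:**
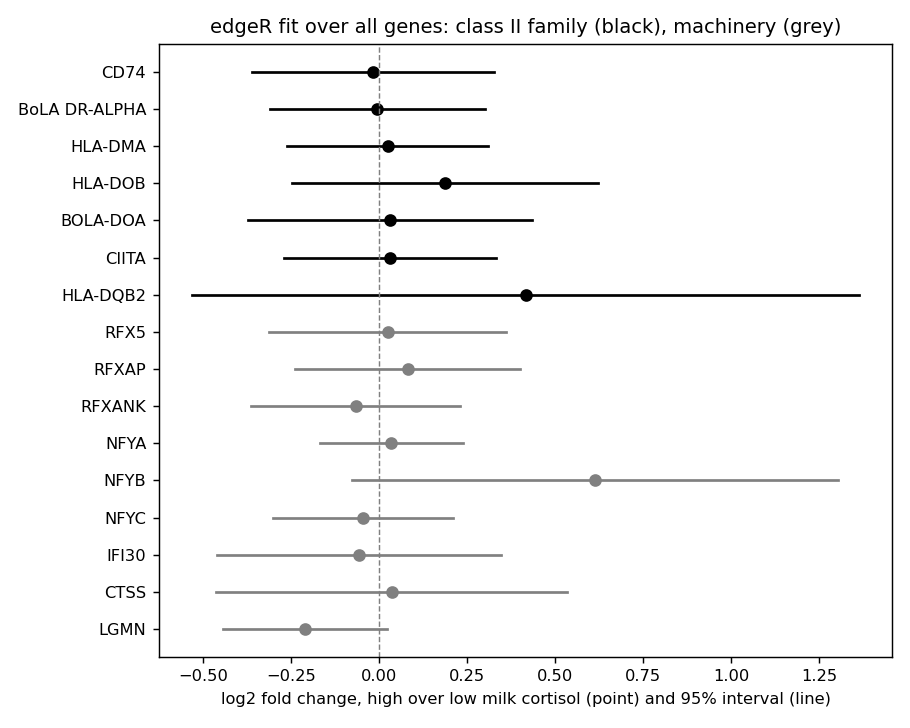
Log2 fold change of the high over the low group from the edgeR fit, with its 95% interval, for the 7 genes (black) and 9 genes of the class II machinery (grey). Every interval spans 0, and those of *HLA-DQB2* and *NFYB* are the widest.

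While no difference between the groups was detected, the cows differed among themselves, and the class II genes did so together. The SD of log2 CPM over the 13 cows was 0.294 for *CD74*, 0.259 for *CIITA* and 0.365 for *BOLA-DOA*, beside a median of 0.305 over all genes tested, so these genes were not unusually variable in blood. Replicate 5 of the high group was the highest cow for 6 of the 7 genes, and replicate 11 of the low group was the lowest for 6 of the 7. The highest cow exceeded the lowest 1.93 times for *CD74*, 1.99 times for *CIITA* and 2.19 times for *BOLA-DOA* in CPM.

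Co-variation was measured as the correlation of log2 CPM over the 13 cows, with two-sided permutation p-values from 100000 resamples and Benjamini-Hochberg adjustment over the 21 pairs of the 7 genes. *CIITA* correlated with *CD74* at r = 0.829 (permutation p = 0.00061, adjusted 0.00128) and rho = 0.780 (permutation p = 0.00267, adjusted 0.00561), and r was 0.665 without the 2 cows farthest from the median of *CIITA*. Within the high and the low group r was 0.757 and 0.938. With *BOLA-DOA* the correlation of *CIITA* was r = 0.824 (permutation p = 0.00023, adjusted 0.000805) and rho = 0.857 (permutation p = 0.00037, adjusted 0.00155), and r was 0.849 without the 2 farthest cows. Within the groups it was 0.876 in the high and 0.783 in the low group. Cows with more RNA of the transactivator thus had more of both genes.

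*CD74* and *BOLA-DOA*, by contrast, were not shown to run together, with r = 0.479 (permutation p = 0.0982, adjusted 0.115) and rho = 0.495 (permutation p = 0.0891, adjusted 0.121), and with r = 0.252 without the 2 farthest cows. Of the class II genes outside the rule, 3 had a higher r with *CIITA* than *CD74* had. *HLA-DOB* had the highest correlation with *CIITA*, r = 0.940 (permutation p = 2.0e-05, adjusted 0.00014) and rho = 0.896 (permutation p = 0.00016, adjusted 0.00084), with 0.868 without the 2 farthest cows. *BoLA DR-ALPHA* and *HLA-DMA* had r = 0.882 and 0.845 and rho = 0.835 and 0.791 with *CIITA* (permutation p of r 0.00013 and 0.00029, adjusted 0.000546 and 0.00087, of rho 0.00082 and 0.00235, adjusted 0.00246 and 0.00548). Without the 2 farthest cows their r was 0.787 and 0.689.

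*CD74*, *BoLA DR-ALPHA* and *HLA-DMA* formed the tightest group. *CD74* had r = 0.930 with *HLA-DMA* and 0.907 with *BoLA DR-ALPHA*, and rho = 0.929 and 0.918 (permutation p of r 1.0e-05 and 3.0e-05, adjusted 0.000105 and 0.000157, of rho 2.0e-05 and 8.0e-05, adjusted 0.00021 and 0.00056). Without the 2 farthest cows r was 0.881 and 0.836. *HLA-DMA* and *BoLA DR-ALPHA*, which lie far apart on chromosome 23, had r = 0.944 and rho = 0.945 (permutation p of both 1e-05, the smallest that 100000 resamples can give, adjusted 0.000105 and 0.00021), and r was 0.955 without the 2 farthest cows. *HLA-DQB2* had r of 0.127 with *BOLA-DOA* and 0.551 with *CIITA*, and with 9 to 66 counts a cow its correlations rest on little depth. All these correlations share 1 scaling of each library, and log2 depth itself had r between -0.109 and 0.0213 with the 7 genes over all cows. Within the groups the relation to depth had opposite signs. In the high group r with log2 depth was 0.614 for *CD74*, 0.759 for *CIITA*, 0.702 for *BOLA-DOA* and 0.833 for *HLA-DOB* (exact permutation p 0.152, 0.0385, 0.0833 and 0.0212, 7 cows). In the low group it was -0.479, -0.622, -0.551 and -0.829 in the same order (exact permutation p 0.369, 0.193, 0.253 and 0.0431, 6 cows). These p are not adjusted, and the part of depth in the correlations between genes was not tested.

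**Figure D4:**
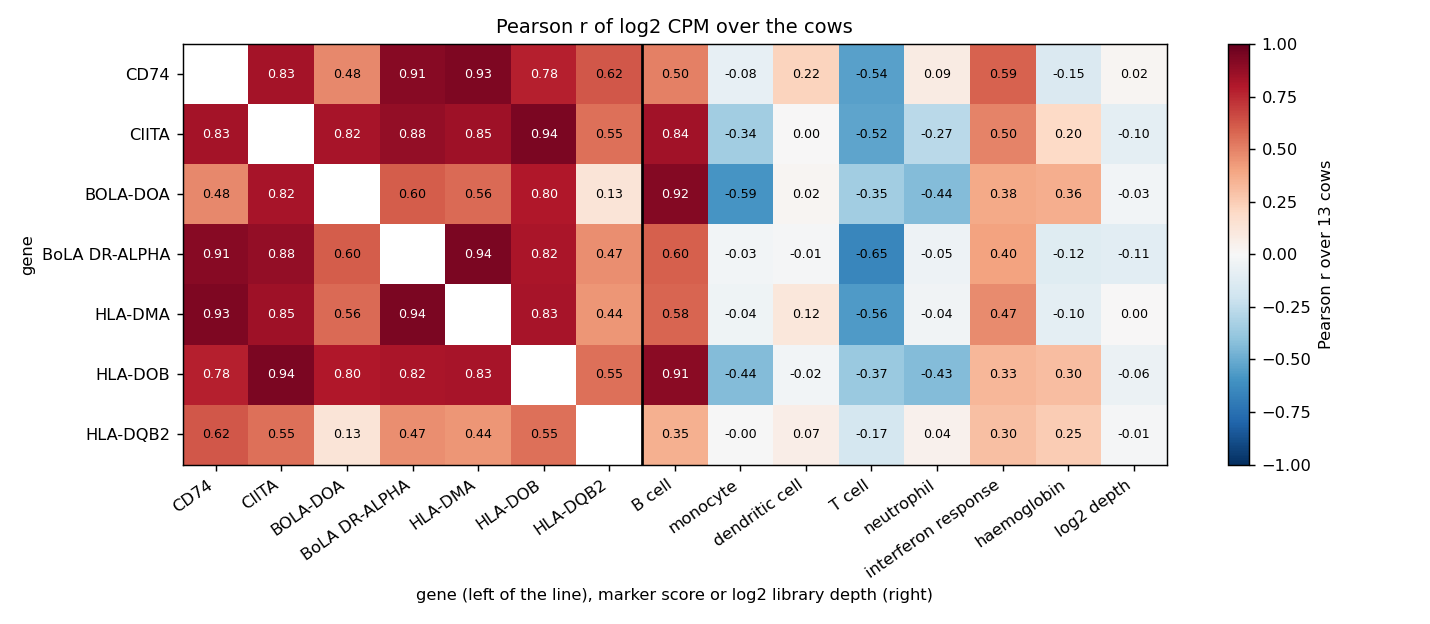
Pearson r over the 13 cows between the log2 CPM of the 7 genes (left of the line) and with marker scores and log2 library depth (right of the line), from blue (-1) to red (1). *CD74*, *BoLA DR-ALPHA* and *HLA-DMA* have r above 0.9 with each other, while *BOLA-DOA* and *HLA-DOB* have r of 0.917 and 0.906 with the B cell score.

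Since class II RNA in blood comes from several kinds of cells, the genes were set beside marker scores, each the mean over a list of log2 CPM centred on the gene. The B cell score used 15 of 18 listed markers, none of them at 0, with a summed level of 2397 to 4556 CPM in the high group and 2391 to 4204 CPM in the low group. *BOLA-DOA* correlated with this score at r = 0.917 (permutation p = 1e-05, the smallest that 100000 resamples can give, adjusted 0.00056 over 56 relations) and rho = 0.835 (permutation p = 0.00059, adjusted 0.0165). It was 0.858 without the 2 cows farthest from the median score, 0.977 within the high group and 0.932 within the low group. In bulk blood, fewer B cells and less RNA in each B cell cannot be told apart. Between the groups 12 of the 15 markers were higher and 3 lower in the high group, where 5885 of all 11033 genes tested were higher. Of the 15 markers 1, *CR2*, had an unadjusted p below 0.05 (0.0436, log2 fold change 0.61, edgeR, 0 adjusted). Over all genes 0.934% were higher at that threshold.

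*CIITA* had r = 0.840 with the B cell score (permutation p = 0.00016, adjusted 0.00299) and rho = 0.808 (permutation p = 0.00117, adjusted 0.0218), and 0.796 without the 2 farthest cows. For *CD74* the values were r = 0.501 (permutation p = 0.0808, adjusted 0.368) and rho = 0.555 (permutation p = 0.0521, adjusted 0.324), and 0.534 without the 2 farthest cows. The order from *BOLA-DOA* over *CIITA* to *CD74* is also that of the slopes, 1.13, 0.73 and 0.50 log2 CPM for each unit of the score. Outside the rule, *HLA-DOB* had r = 0.906 and rho = 0.907 (permutation p 2.0e-05 and 5.0e-05, adjusted 0.00056 and 0.0028), and 0.832 without the 2 farthest cows. *BoLA DR-ALPHA* and *HLA-DMA* had r of 0.599 and 0.579 and rho of 0.676 and 0.659, with adjusted p of 0.155 to 0.279 in permutation tests, and 0.659 and 0.594 without the 2 farthest cows.

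Replicates 5 and 7 of the high group and replicate 12 of the low group had B cell scores of 0.571, 0.424 and 0.401, above the -0.373 to 0.0616 of the other 10 cows. Among these 10 cows alone r with the score was 0.724 for *BOLA-DOA*, 0.758 for *CIITA* and 0.564 for *CD74* (permutation p 0.0102, 0.00911 and 0.0901, adjusted 0.0256, 0.0256 and 0.105 over the 7 genes), and rho was 0.673, 0.612 and 0.564 (permutation p 0.0386, 0.0652 and 0.0953). Outside the rule *HLA-DOB*, *BoLA DR-ALPHA* and *HLA-DMA* here had r of 0.758, 0.742 and 0.671, and rho of 0.806, 0.745 and 0.709. Their permutation p of r was 0.0110, 0.0149 and 0.0376, adjusted 0.0256, 0.0261 and 0.0526. *HLA-DQB2* had r of 0.140. In these 10 cows r of *BoLA DR-ALPHA* was thus not below that of *BOLA-DOA*. The slope of each gene on the B cell score was compared with that of *CD74*, over 6 genes. For this the log2 ratio of the gene to *CD74* was correlated with the score. For *BOLA-DOA* the ratio had r = 0.548 (permutation p = 0.0524, adjusted 0.157) and rho = 0.418 (permutation p = 0.158, adjusted 0.474), and 0.343 without the 2 farthest cows. A steeper slope of *BOLA-DOA* than of *CD74* was thus not shown. How closely each gene followed the score was not compared by a test. For *HLA-DOB* the ratio had r = 0.868 (permutation p = 0.0004, adjusted 0.0024) and rho = 0.692 (permutation p = 0.0107, adjusted 0.0640), and 0.735 without the 2 farthest cows. For *HLA-DOB* relative to *CD74*, r thus passed adjustment and rho did not.

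**Figure D5:**
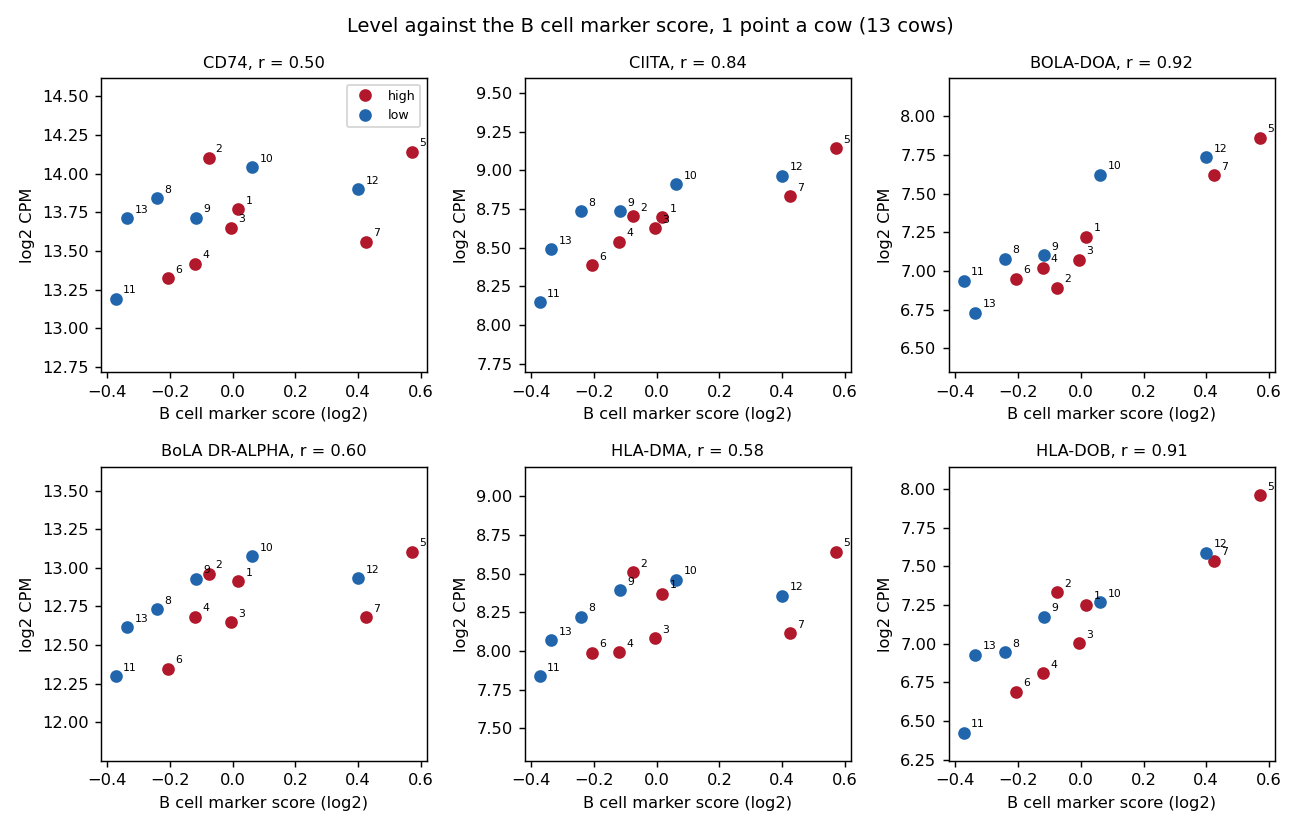
Log2 CPM of 6 genes against the B cell marker score, 1 point a cow with its replicate number, the high group in red and the low group in blue, on axes of equal height. *BOLA-DOA* and *HLA-DOB* rise steeply with the score (r = 0.917 and 0.906), whereas *CD74* spreads widely at a given score (r = 0.501).

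Single B cell markers differed in how closely the genes followed them. Over the 15 markers the median r of *BOLA-DOA* was 0.803, with the highest, 0.934, for *CD79B*, a chain of the B cell receptor, and the lowest, -0.442, for *FCER2*, the low affinity IgE receptor. For *CIITA* the median was 0.803 and for *CD74* 0.482. These are descriptions over the same 13 cows.

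The other scores showed no correlation with the 3 genes that passed adjustment over the 56 relations. The monocyte score, from 13 of 14 markers with a summed level of 2071 to 4352 CPM in the high group and 2734 to 3847 CPM in the low group, had r of -0.0841 with *CD74*, -0.345 with *CIITA* and -0.587 with *BOLA-DOA* (permutation p 0.786, 0.249 and 0.0344, adjusted 0.994, 0.581 and 0.279, and rho -0.159, -0.429 and -0.467). The dendritic cell score, from 9 of 12 markers, had r of 0.221, 0.00228 and 0.0172 with the 3 genes in that order, and its markers summed to only 72.8 to 112 CPM in the high group and 89.3 to 106 CPM in the low group. The T cell score had r of -0.542, -0.524 and -0.351, and the neutrophil score 0.0854, -0.267 and -0.436 (adjusted permutation p 0.317 to 0.994). Without the 2 farthest cows these were -0.498, -0.179 and 0.0130, and 0.283, 0.136 and 0.0171. Within the groups r with *BOLA-DOA* and with *CIITA* changed sign, and r with *CD74* did not. For *BOLA-DOA* and the T cell score it was 0.438 in the high and -0.888 in the low group (exact permutation p 0.322 and 0.0375, not adjusted). For *BOLA-DOA* and the neutrophil score it was -0.826 and 0.417 (exact permutation p 0.0137 and 0.404, not adjusted). *CIITA* had r of 0.0917 and -0.873 with the T cell score (exact permutation p 0.855 and 0.0181, not adjusted). With the neutrophil score *CIITA* had r of -0.536 and 0.277 (exact permutation p 0.214 and 0.610, not adjusted). Between the groups 1 of 13 monocyte, 0 of 9 dendritic cell, 0 of 16 T cell and 2 of 10 neutrophil markers had an unadjusted p below 0.05 (edgeR). Those called were lower in the high group, as were 1.16% of all genes, and 0 passed after adjustment. Most monocyte markers went the other way, with 10 higher and 3 lower in the high group and a median log2 fold change of 0.14. Of the dendritic cell markers 6 were higher and 3 lower, of the T cell markers 4 and 12, and of the neutrophil markers 2 and 8. The part of these cells in the class II values was not tested.

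Interferon induces *CIITA*, and the 18 interferon response genes tested were all lower in the high group, with a median log2 fold change of -0.69. By edgeR 5 of them had an unadjusted p below 0.05, where 1.16% of all genes were lower at that threshold, and 0 passed adjustment. The mean score was -0.344 in the high group and 0.401 in the low group. Its r was 0.589 with *CD74*, 0.499 with *CIITA* and 0.377 with *BOLA-DOA* (permutation p 0.0356, 0.0854 and 0.206, adjusted 0.279, 0.368 and 0.581), with rho of 0.681, 0.467 and 0.231 and r of 0.535, 0.398 and 0.377 without the 2 farthest cows. With this score as a covariate the log2 fold changes were 0.18 for *CD74*, 0.20 for *CIITA* and 0.21 for *BOLA-DOA* (unadjusted p 0.278, 0.174 and 0.294 from edgeR's test). All 4 haemoglobin genes tested were higher in the high group, with a median log2 fold change of 2.72. Of them 3 had an unadjusted p below 0.05 (edgeR), where 0.934% of all genes were higher at that threshold, and 0 passed adjustment. The mean haemoglobin score was 0.690 in the high group and -0.804 in the low group, so its mean moved with the groups. The scores overlapped, from -1.26 to 2.87 (replicate 7) among high cows and from -1.35 to -0.222 among low cows. The haemoglobin score had r of -0.147, 0.196 and 0.361 with the 3 genes over all cows. Without the 2 farthest cows r was -0.428, -0.347 and -0.264, so the sign changed for *CIITA* and *BOLA-DOA*. Within the high group r was -0.0730, 0.430 and 0.623, and within the low group -0.636, -0.454 and -0.0392. With the haemoglobin share as a covariate the log2 fold changes were 0.10, -0.050 and -0.27, each with the sign opposite to that without it.

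Finally, the genes whose pattern over the 13 cows was most like that of a class II gene were listed by Pearson r among 11030 genes, as a description with no test. For *CD74* they were *HPS6* (0.953), *HLA-DMA* (0.930), *BoLA DR-ALPHA* (0.907), *ICAM2* (0.906) and *NSUN5* (0.892), so that 2 of these 5 are class II genes. The most opposite patterns were those of *SLC37A3* (-0.900), *RSPRY1* (-0.899) and *PRPSAP2* (-0.880). For *CIITA* they were *HLA-DOB* (0.940), *WDFY4* (0.920), *FCRL5* (0.905), *LBH* (0.898) and *BoLA DR-ALPHA* (0.882). For *BOLA-DOA*, added after its values were seen, they were *CD180* (0.953), *CD79B* (0.934), *FCRL3* (0.914), *DTX4* (0.897) and *NMB* (0.896), whereas *HLA-DOB* came at place 44 and *BoLA DR-ALPHA* at place 274. None of these genes had an unadjusted p below 0.05 between the groups by edgeR, with log2 fold changes from -0.0083 to 0.19.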

How the data were processed

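Gene counts of 13 cows were analysed. The authors deposited counts, whole numbers of reads assigned to each gene name, without normalization. Per the file headers they come from featureCounts 1.4.6-p3 (exons summed by gene name) on the UMD3.1 annotation of Ensembl 88, run without settings for strand, pairs or multiple mapping. The aligner is not named there, and the processing notes of the submitters name STAR 2.7.3, Subread 1.6.5 and ARS-UCD1.2, which is another build. Groups are from the sample labels. The headers carry animal numbers other than those of the tables and a goat folder, and which animal numbering holds was not checked. No library repeated another.

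TMM-scaled CPM and their log2 (prior count 2) were derived from these deposited counts. Groups were compared with edgeR 4.0.16 in R 4.3.3 (robust quasi-likelihood fit, filterByExpr with minimum count 10 and minimum total 15, no covariate, Benjamini-Hochberg adjustment over all genes tested). Standard errors derive from F and the log2 fold change, and 95% intervals use the t distribution of the fit. The fit was tested on simulated data. Correlations within 1 group used every order of its cows (exact permutation test). The alternatives were DESeq2 1.42.0, limma-voom 3.58.1, other scalings, filters and covariates, and each cow left out.

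The members, gene lists and tests were chosen with earlier results of these data known. By rule the text names the 3 members, genes of the pathway lists at an unadjusted p below 0.05, the RFX and NF-Y genes, *CTSS*, *IFI30* and *LGMN*, and the 5 genes most like *CD74* and *CIITA* with the 3 most unlike *CD74*. The spellings of the 4 class II genes outside the rule, the tests of ratios to *CD74*, the 10 cows of lower B cell score, the haemoglobin and depth correlations, the genes most like *BOLA-DOA*, and *IRF1*, *CD40*, *CD80*, *CD86*, *NLRC5*, *CR2*, *CD79B* and *FCER2* were chosen after the data were seen. A floor of 3 counts, which corresponds to 0.107 to 0.272 CPM, covers counting error only.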

Additional observations from a re-analysis of the deposited data

How the results depend on the processing

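No paired analysis was made because the labels pair no cow of the high group with a cow of the low group. The count of the 3 genes at an adjusted p of 0.05 was 0 under all 22 alternatives, and the count at an unadjusted p below 0.05 was 0 except with the B cell score as a covariate, where it was 1 (*BOLA-DOA*). Leaving out 1 cow gave 0 to 0 for both counts and -0.0447 to 0.0873 percentage points for the difference in share. The sign of fold changes this close to 0 depended on the setting. With the haemoglobin share as a covariate the log2 fold change was 0.10 for *CD74*, -0.050 for *CIITA*, -0.27 for *BOLA-DOA* and 0.061 for *BoLA DR-ALPHA*. With the interferon score it was 0.18 for *CD74*, 0.11 for *BoLA DR-ALPHA*, 0.39 for *HLA-DOB* and 0.90 for *HLA-DQB2* (unadjusted p 0.0702 and 0.0901 for the last pair, edgeR), and with upper-quartile factors 0.010 for *BoLA DR-ALPHA*. With the B cell score it was -0.11 for *CIITA*, -0.20 for *BOLA-DOA*, -0.069 for *HLA-DMA* and -0.065 for *HLA-DOB*. Without 1 cow it ran from -0.11 to 0.051 for *CD74*, -0.055 to 0.094 for *CIITA*, -0.095 to 0.15 for *BOLA-DOA*, -0.085 to 0.064 for *BoLA DR-ALPHA*, -0.048 to 0.077 for *HLA-DMA*, 0.038 to 0.31 for *HLA-DOB* and 0.16 to 0.67 for *HLA-DQB2*. The cause was not tested. In the low group alone r of *CIITA* was 0.783 with *BOLA-DOA* and 0.817 with the B cell score (exact permutation p 0.0639 and 0.0583, 6 cows). Over all genes tested, those at an unadjusted p below 0.05 numbered 231, but 348 by DESeq2 (1 adjusted), 414 without a filter on low counts, 120 with the haemoglobin share, 353 with the B cell score, 373 without replicate 2 and 363 without replicate 5 of the high group. *HLA-DQB2*, with at most 66 counts, is limited by depth.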
